A study of Mus musculus with 6 samples.

Results

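The Ms4a genes of mouse chromosome 19 encode a family of small membrane proteins, and 7 of them are described here in conventional type 1 dendritic cells (cDC1s) with and without c-Jun and JunB, transcription factors of the AP-1 family. The members *Ms4a4a*, *Ms4a4b*, *Ms4a4c*, *Ms4a6b*, *Ms4a6c*, *Ms4a6d* and *Ms4a7* were taken from a fixed list of symbols and found by Ensembl identifier among the 54532 genes counted in each library. GENCODE release M21 places 19 Ms4a genes on the chromosome, so 12 genes of the family are not members. The members were chosen by their read counts in these same libraries, with the difference between genotypes in view, and every value of that difference is therefore given for them as a description without a test.

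Bone marrow was cultured with FLT3L, a cytokine that drives dendritic cell development (80 ng/mL, 8 days), and cDC1s were sorted as CD24+ CD11c+ cells without B220, CD115 or CD172a. Poly(A) RNA was sequenced in 6 libraries, namely 3 c-Jun/JunB fl/fl libraries, whose Jun and Junb alleles are floxed and intact (controls fl/fl 1, 2 and 3), and 3 that carry the same floxed alleles together with Itgax-Cre (deletion libraries Δ/Δ 1, 2 and 3), in which Cre under the Itgax (CD11c) promoter deletes both genes in cells that express CD11c. The mice were adults of both sexes with a mixed 129Sv and C57BL/6 background, and the strain alleles that each library carried at the Ms4a genes were not tested. A legend of the study treats each RNA-Seq sample as a single mouse, which the sample labels do not state, and the age and sex of each donor were not stated.

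MS4A proteins cross the membrane several times, and many act beside other receptors in the same membrane. The best known are the B cell antigen CD20, encoded by *Ms4a1*, and the beta chain of the high-affinity IgE receptor of mast cells and basophils, encoded by *Ms4a2*. Other members of the family are known mainly from monocytes, macrophages and T cells, and several are known to respond to interferon.

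On the GRCm38 build the members lie within 284 kb of chromosome 19, in the order *Ms4a7* (chr19:11321039-11336146, minus strand), *Ms4a4a* (chr19:11375523-11392790, plus), *Ms4a4c* (chr19:11404770-11427246, plus), *Ms4a4b* (chr19:11443553-11467055, plus), *Ms4a6c* (chr19:11469366-11482192, plus), *Ms4a6b* (chr19:11516512-11531256, plus) and *Ms4a6d* (chr19:11586604-11604849, minus). They are copies of one another to very different degrees. Over the aligned coding bases, *Ms4a4b* and *Ms4a4c* were 91.7% identical, the highest of the 21 pairs, and their longest identical run was 127 bases. *Ms4a6b* and *Ms4a6c* were 86.4% identical, *Ms4a6b* and *Ms4a6d* 81.8%, and *Ms4a6c* and *Ms4a6d* 79.6%. *Ms4a4a* and *Ms4a4b* shared 69.9%, and the other pairs between 60.8 and 68.9%.

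The first 90 coding bases of *Ms4a4b* and *Ms4a4c* are shown because these near copies stood far apart in the libraries. Capitals mark the 7 bases at which they differ.
Ms4a4b: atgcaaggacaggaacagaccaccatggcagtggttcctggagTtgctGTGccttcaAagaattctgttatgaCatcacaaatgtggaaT
Ms4a4c: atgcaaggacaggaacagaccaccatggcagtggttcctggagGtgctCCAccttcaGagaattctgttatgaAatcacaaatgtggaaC

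The same stretch of the 3 Ms4a6 genes is shown to set the abundant *Ms4a6c* beside its rarer copies. Capitals mark the 19 positions at which the 3 sequences are not all the same.
Ms4a6b: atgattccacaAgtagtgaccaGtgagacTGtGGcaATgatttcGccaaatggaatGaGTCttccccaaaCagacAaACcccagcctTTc
Ms4a6c: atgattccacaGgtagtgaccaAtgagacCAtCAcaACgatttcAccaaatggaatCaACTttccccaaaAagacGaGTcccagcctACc
Ms4a6d: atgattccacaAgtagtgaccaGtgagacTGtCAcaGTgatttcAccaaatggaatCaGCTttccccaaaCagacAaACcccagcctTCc

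Only uniquely mapped reads were counted, so a read pair that lies wholly in sequence shared by 2 genes is lost. Of the 75-base stretches of the exons, which is the length of 1 read, 3.78% of those of *Ms4a4c* occurred on the same strand in another gene, which was *Ms4a4b*. The share was 2.89% for *Ms4a6c* (with *Ms4a6b* and *Prdm11*), 1.18% for *Ms4a4b*, 0.632% for *Ms4a6b*, 0.408% for *Ms4a6d* and 0 for *Ms4a4a* and *Ms4a7*. On the opposite strand, 47.7% of the stretches of *Ms4a6c* also lay in BE692007, a transcript that runs the other way, and the strand column that was counted is not stated. BE692007 held 0.568 to 1.58 CPM (reads on a gene per 1000000 reads on all genes of that library) against 188 to 259 CPM for *Ms4a6c*.

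Between 21693217 and 26788296 reads of a library lay on genes. All 3 Δ/Δ libraries and all 3 fl/fl libraries expressed the cDC1 genes *Irf8*, *Clec9a* and *Batf3*, with summed CPM over 10 cDC1 markers of 8961 to 9026 in the controls and 7244 to 8514 in the deletion libraries. *Xcr1*, a chemokine receptor that marks cDC1s, fell from 446 ± 27.1 to 167 ± 40.7 CPM (SD, n = 3; log2 fold change -1.42, SE 0.17, edgeR adjusted p = 0.00812), and *Tlr3* and *Snx22* also passed an adjusted p of 0.05 with lower values. The targeted gene *Jun* had 70.9, 52.4 and 63.1 CPM in the controls against 48.1, 44.2 and 60.4 CPM in the deletion libraries (log2 fold change -0.29, SE 0.15, edgeR adjusted p = 0.345). *Junb* had 314, 274 and 413 CPM in the controls against 110.3, 171 and 211 CPM in the deletion libraries (-1.02, SE 0.25, edgeR adjusted p = 0.0729), without overlap. Neither passed the test, and the counts do not tell which part of a gene the reads came from. The study also measured both transcripts by RT-qPCR in cDC1s sorted from such cultures. It reports their deletion by that method in cDC1s sorted from spleen and lymph nodes. In RNA from sorted populations, more cells of a kind and more RNA per cell cannot be told apart.

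The largest log2 fold change among the members was that of *Ms4a4a*, whose protein is known in macrophages as a partner of the beta-glucan receptor dectin-1. It had 2.04, 3.33 and 6.44 CPM in controls 1, 2 and 3 against 19.9, 28.6 and 28.8 CPM in Δ/Δ 1, 2 and 3. Every Δ/Δ library lay above every fl/fl library, and fl/fl 3 was the highest of its genotype. The control values rested on 53, 90 and 152 reads. The means were 3.94 ± 2.26 and 25.8 ± 5.10 CPM (SD, n = 3), a log2 fold change of 2.71 with an SE of 0.40, or 6.56-fold.

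*Ms4a4c* followed the same order at a much higher read count. Its 68.9, 72.2 and 108.5 CPM in the controls stood against 209.5, 253 and 247 CPM in the deletion libraries, again without overlap and again with fl/fl 3 as the highest control. The means were 83.2 ± 22.0 and 237 ± 23.7 CPM (SD, n = 3; log2 fold change 1.51, SE 0.18, 2.85-fold). Its near copy *Ms4a4b*, known from T cells, had only 1.46, 3.41 and 1.70 CPM in the controls against 3.89, 2.52 and 2.55 CPM in the deletion libraries. These values overlapped, with a log2 fold change of 0.45 and an SE of 0.38, and rested on 38 to 96 reads a library.

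*Ms4a6c* had the most reads of the members in the fl/fl libraries and differed little between genotypes. It had 188, 191 and 220 CPM in the controls against 252, 200 and 259 CPM in the deletion libraries, where Δ/Δ 2 lay within the range of the controls. The means were 199 ± 17.5 and 237 ± 32.2 CPM (SD, n = 3; log2 fold change 0.25, SE 0.11, 1.19-fold). *Ms4a6b* had 20.0, 23.4 and 24.3 CPM in the controls against 25.8, 33.3 and 43.2 CPM in the deletion libraries. Its groups did not overlap, although the lowest Δ/Δ and the highest fl/fl library were only 25.8 and 24.3 CPM (log2 fold change 0.59, SE 0.19).

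The remaining 2 members were rare in both genotypes. *Ms4a6d*, whose protein is known as a brake on inflammatory signalling in macrophages, had 1.73, 2.85 and 5.09 CPM in the controls against 5.68, 11.98 and 6.78 CPM in the deletion libraries, the highest being Δ/Δ 2 (log2 fold change 1.34, SE 0.44). *Ms4a7*, a gene of monocytes and tissue macrophages, had 2.50, 1.85 and 2.80 CPM in the controls against 3.77, 5.59 and 6.51 CPM in the deletion libraries (1.15, SE 0.28). Both had all Δ/Δ above all fl/fl libraries, on 45 to 257 and 50 to 148 reads a library.

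**Figure D1:**
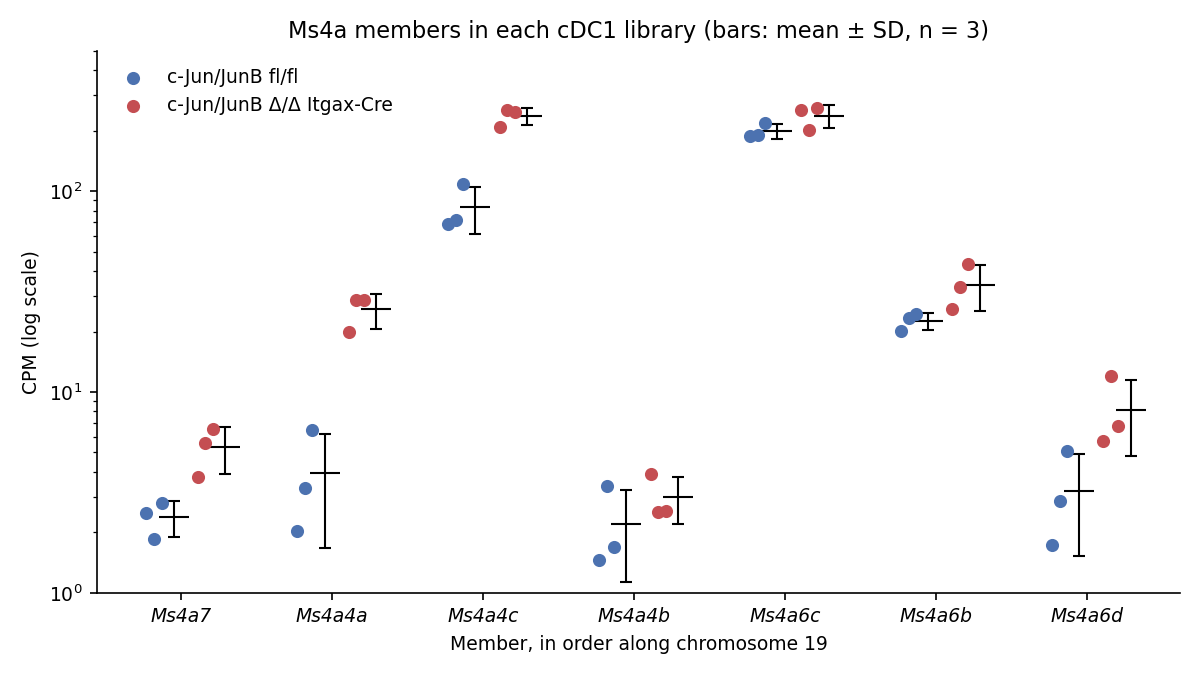
CPM (log axis) of each member in each of the 6 libraries, blue for c-Jun/JunB fl/fl and red for Δ/Δ Itgax-Cre, with points from left to right for libraries 1, 2 and 3 and black bars for the mean ± SD of 3. The red points lie above the blue ones for *Ms4a7*, *Ms4a4a*, *Ms4a4c*, *Ms4a6b* and *Ms4a6d*, and the colours overlap for *Ms4a4b* and *Ms4a6c*.

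All 7 members passed the filter on low counts, and all 7 log2 fold changes were above 0, with a median of 1.15. Over the 12894 genes tested the median was 0.0018, and 50.3% lay above 0. A gene was called when edgeR's adjusted p was under 0.05 and its log2 fold change at least 1 in size. Of the members, 2 were called higher in Δ/Δ libraries, *Ms4a4a* and *Ms4a4c*, and 0 lower, where 0.993% of all tested genes were called higher and 0.869% lower. In 5 of 7 members every Δ/Δ library lay above every fl/fl library, which held for 13.7% of all tested genes. Without the fold limit the same 2 members passed the adjusted p, as 3.88% of all tested genes did. The rule used this contrast, so nothing is read from these counts. With either fl/fl 1 or fl/fl 2 left out, the number of members called was 0, and without Δ/Δ 1 it was 3, with *Ms4a7* as the addition. DESeq2 called 4, adding *Ms4a6d* and *Ms4a7*. The share of all tested genes called is not given for these other settings, so nothing is read from their counts either. *Ms4a4a* kept log2 fold changes from 2.40, when fl/fl 1 was left out, to 3.25, when fl/fl 3 was, and *Ms4a4c* from 1.39 to 1.74 in the same order.

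**Figure D2:**
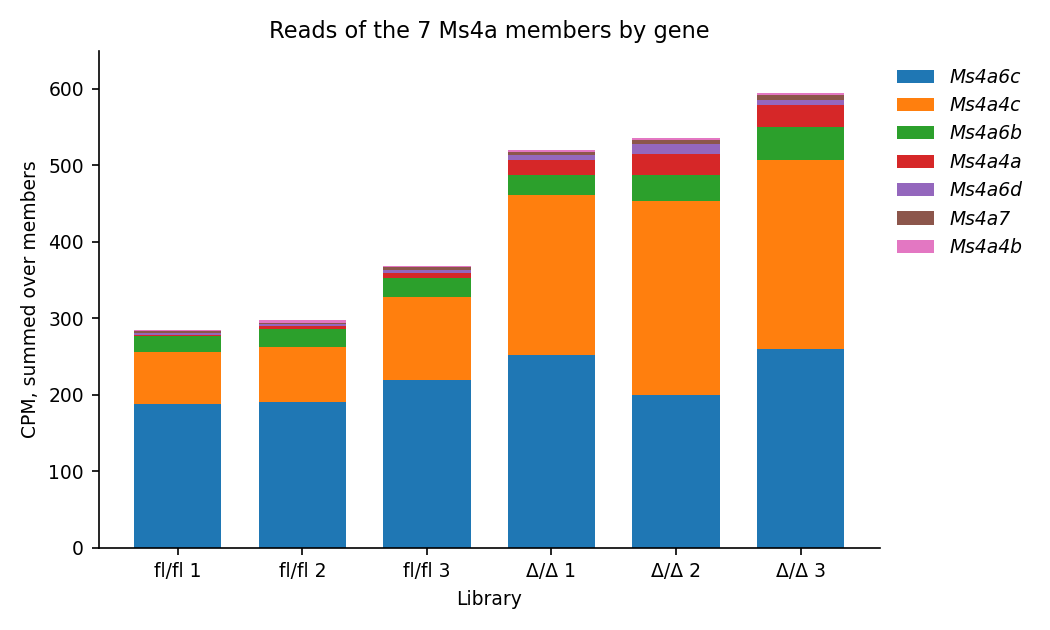
Stacked CPM of the 7 members in each library. The full bars reach 284 to 368 CPM in the controls against 521 to 594 CPM in the deletion libraries, and the orange part, *Ms4a4c*, accounts for most of the difference in height.

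Summed over the members, the reads came to 284, 298 and 368 CPM in the controls against 521, 536 and 594 CPM in the deletion libraries (317 ± 45.1 and 550 ± 38.9, SD, n = 3). The composition of this sum also differed. *Ms4a6c* held 63.2 ± 3.30% of it in fl/fl and 43.2 ± 5.53% in the deletion libraries, while *Ms4a4c* held 25.97 ± 3.02% and 43.0 ± 3.74%. *Ms4a4a* went from 1.20% to 4.67% of the sum. In the stacked plot the blue part for *Ms4a6c* spans 188 to 259 CPM, that for *Ms4a4c* 68.9 to 253 CPM and that for *Ms4a4a* 2.04 to 28.8 CPM.

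Levels of different genes were compared as CPM per kilobase of exon, counting every exon base of a gene once. In fl/fl libraries the order was *Ms4a6c* (97.3 ± 8.55 CPM per kb), *Ms4a4c* (47.5 ± 12.6), *Ms4a6b* (5.03 ± 0.503), *Ms4a4a* (4.71 ± 2.71), *Ms4a6d* (1.86 ± 0.984), *Ms4a7* (0.536 ± 0.109) and *Ms4a4b* (0.249 ± 0.121; SD, n = 3 for each). The libraries of *Ms4a6b*, *Ms4a4a* and *Ms4a6d* overlapped between neighbours in this order, and no other neighbours did. In Δ/Δ libraries *Ms4a4c* (135 ± 13.5 CPM per kb) and *Ms4a6c* (116 ± 15.7) stood first with overlapping libraries, *Ms4a4a* came next (30.8 ± 6.10) without overlap with either neighbour, and then *Ms4a6b* (7.60 ± 1.95), *Ms4a6d* (4.69 ± 1.94), *Ms4a7* (1.19 ± 0.313) and *Ms4a4b* (0.340 ± 0.0893). Among the last 4, only *Ms4a6b* and *Ms4a6d* overlapped. The near copies *Ms4a4b* and *Ms4a4c*, printed above, thus stood at the bottom and near the top of both orders. Counting length only over 75-base stretches shared with no other Ms4a gene exchanged *Ms4a4a* and *Ms4a6b* in fl/fl libraries and no other places.

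The members varied together to unequal degrees. Across the 6 libraries the log2 CPM of *Ms4a4a* and *Ms4a4c* had a Pearson correlation of 0.994, and after the mean of each genotype was taken off it was 0.949. Within genotypes *Ms4a6d* followed both (0.893 with *Ms4a4a*, 0.864 with *Ms4a4c*), whereas *Ms4a4b* had -0.111 with *Ms4a4a* and -0.398 with *Ms4a4c*. These are descriptions over 6 libraries, and the points share the genotype, the library and its depth.

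Among 11596 tested genes with a mean of at least 1 CPM, those most like *Ms4a4a* over the 6 libraries were *Renbp* (Pearson correlation 0.998), *Plekha6* (0.996), *Snap29* (0.995), *Pros1* (0.994) and *Ms4a4c* itself (0.994). Those most like *Ms4a4c* were *Cd209a* (0.999), *Snap29* (0.998), *Clec4a1* (0.998), *Plekha6* (0.997) and *Cd209e* (0.997). *Cd209a* and *Cd209e* encode lectins of the DC-SIGN family, and *Cd209a* is a marker of cDC2s. It had 39.1, 39.0 and 69.2 CPM in the controls against 196, 268 and 239 CPM in the deletion libraries, so fl/fl 3 was again the highest control. With 6 libraries many genes reach such values, and 34 genes had a correlation of at least 0.98 with *Ms4a4c*.

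Of the 12 other Ms4a genes, 1 had enough reads to be tested. *Ms4a1*, the gene of CD20, had 7.51, 5.30 and 5.81 CPM in the controls against 2.84, 11.8 and 6.29 CPM in the deletion libraries, with the widest spread within Δ/Δ (log2 fold change 0.17, SE 0.46, edgeR adjusted p = 0.878). *Ms4a2* had 0, 0 and 1 reads in the controls against 0, 29 and 0 reads in the deletion libraries. The library with 29 reads was Δ/Δ 2. The basophil protease gene *Mcpt8* had 0, 0.0370 and 0.170 CPM in the controls against 0.203, 4.80 and 0.572 CPM in the deletion libraries. The protease gene *Prss34* had 0.116, 0.222 and 0 CPM in the controls against 0.405, 5.50 and 1.28 CPM in the deletion libraries. Of the other mast cell and basophil markers, *Cpa3*, *Gata2* and *Hdc* were also highest in Δ/Δ 2. *Kit* was highest in Δ/Δ 3, *Fcer1a* had at most 3 reads a library and *Mcpt4* had 0. Without Δ/Δ 2, *Ms4a6d*, which was highest there, had a log2 fold change of 0.95. The part of mast cells or basophils in the values of *Ms4a6d* was not tested. *Ms4a14* had 2 to 8 reads a library, *Ms4a3* and *Ms4a10* at most 2, and the other 7 genes had 0 reads in all libraries, where 3 reads pooled over a genotype would be 0.0393 CPM in the controls against 0.0435 CPM in the deletion libraries. These limits cover counting error only.

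**Figure D3:**
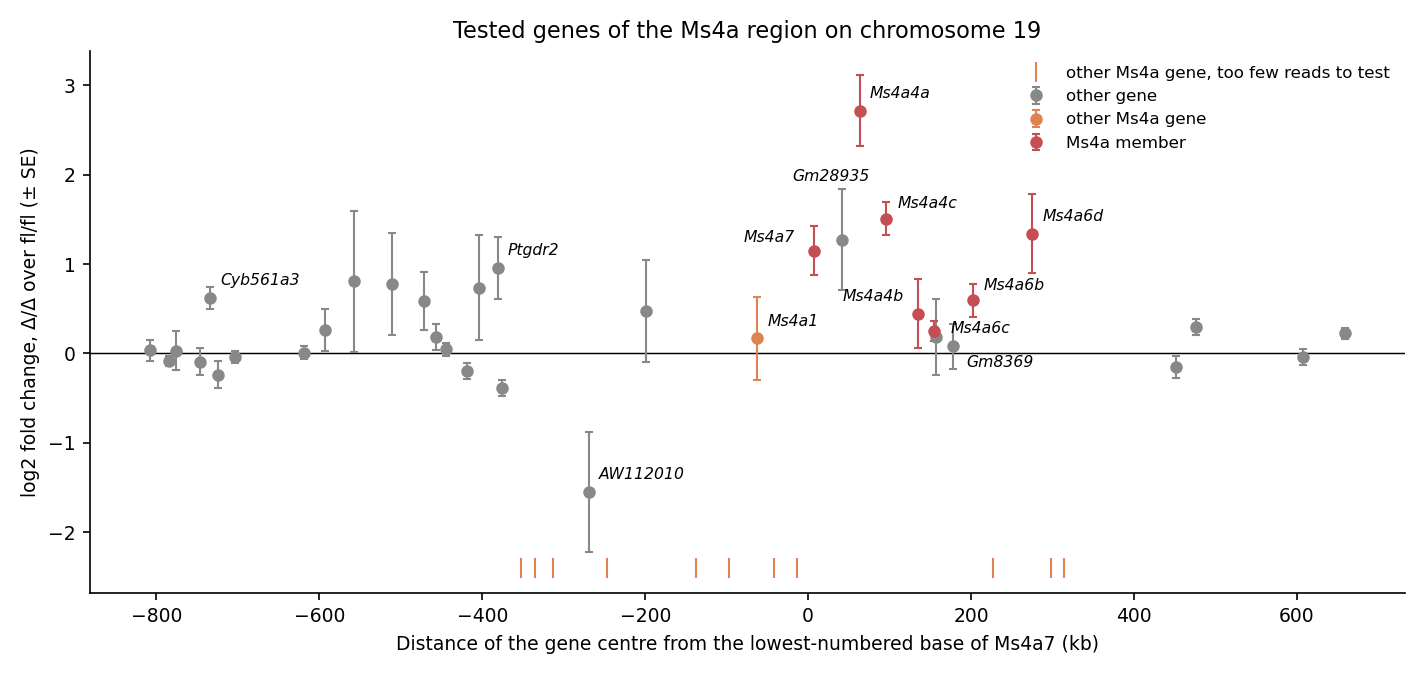
Log2 fold change (Δ/Δ over fl/fl, ± SE) of the tested genes of the region against the distance in kb of each gene's centre from the lowest-numbered base of *Ms4a7*, with members in red, *Ms4a1* in orange, other genes in grey and untested Ms4a genes as ticks. The members with a log2 fold change above 1 stand at both ends of the red cluster, and the grey points run from -1.54 to 1.27.

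The genes around the family were not part of the rule. From 500 kb before the first to 500 kb after the last Ms4a gene, 27 of 69 other genes were tested, with a median log2 fold change of 0.083, and edgeR called 0 of them, where 1.86% of all tested genes were called in either direction. At an unadjusted p under 0.05 there were 5, or 18.5%, against 19.4% of all tested genes, and DESeq2 and limma-voom also called 0. *Cyb561a3*, which encodes a lysosomal cytochrome b561 protein, passed the adjusted p without reaching the fold limit. It had 108, 116 and 116 CPM in the controls against 143, 178 and 203 CPM in the deletion libraries (log2 fold change 0.62, SE 0.12, edgeR adjusted p = 0.0416). The next smallest adjusted p values were those of *Ccdc86* (-0.39, SE 0.09, edgeR adjusted p = 0.0637) and the oxysterol-binding protein gene *Osbp* (0.23, SE 0.06, edgeR adjusted p = 0.104).

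Other genes within the 284 kb of the members gave mixed values. The long non-coding RNA Gm28935, between *Ms4a7* and *Ms4a4a*, had 0.193, 0.408 and 0.975 CPM in the controls against 1.01, 1.63 and 1.14 CPM in the deletion libraries (log2 fold change 1.27, SE 0.56, edgeR adjusted p = 0.275). *Gm8369*, between *Ms4a6c* and *Ms4a6b*, had 2.85 to 3.01 CPM in the controls against 2.38 to 4.10 CPM in the deletion libraries (0.08, SE 0.25, edgeR adjusted p = 0.889). Gm5511, a processed pseudogene between *Ms4a4c* and *Ms4a4b*, had 1 read in each fl/fl library and 6, 8 and 8 reads in the deletion libraries, too few to test. Gm28935, Gm8369 and Gm5511 were singled out after their values were seen.

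In the rest of the region, a single library decided 2 calls. AW112010, a long non-coding RNA among the more distant Ms4a genes, had 34.2, 25.8 and 31.5 CPM in the controls against 3.08, 23.3 and 5.10 CPM in the deletion libraries (log2 fold change -1.54, SE 0.67, edgeR adjusted p = 0.268), and was called lower without Δ/Δ 2. *Ptgdr2*, the prostaglandin D receptor also known as CRTH2, had 5.78, 7.93 and 12.3 CPM in the controls against 10.6, 17.01 and 22.8 CPM in the deletion libraries (0.96, SE 0.35, edgeR adjusted p = 0.197), and was called higher without Δ/Δ 1.

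The sequence before the start of the gene was read for members from RefSeq (GRCm38.p6), in which 6 of 7 members were found. For *Ms4a4c* and *Ms4a6b* the RefSeq start lay well inside the gene as GENCODE places it. The sequence before their GENCODE starts was not read. Over the 250 bases before the start, *Ms4a6b* and *Ms4a6c* were 85.1% identical over the aligned bases and *Ms4a4b* and *Ms4a4c* 80.1%, and the other pairs 58.5 to 64.7%. The 3 Ms4a4 stretches are shown because *Ms4a4a* and *Ms4a4c* varied together while the copy most like *Ms4a4c* did not. They lie at chr19:11375238-11375487, chr19:11407411-11407660 and chr19:11443308-11443557 on the plus strand, and capitals mark GAGGAA, a core of sites of the myeloid factor PU.1.
Ms4a4a: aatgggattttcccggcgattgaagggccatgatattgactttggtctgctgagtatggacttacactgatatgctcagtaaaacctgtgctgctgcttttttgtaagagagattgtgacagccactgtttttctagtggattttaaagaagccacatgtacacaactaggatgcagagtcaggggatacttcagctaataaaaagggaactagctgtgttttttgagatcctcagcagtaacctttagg
Ms4a4c: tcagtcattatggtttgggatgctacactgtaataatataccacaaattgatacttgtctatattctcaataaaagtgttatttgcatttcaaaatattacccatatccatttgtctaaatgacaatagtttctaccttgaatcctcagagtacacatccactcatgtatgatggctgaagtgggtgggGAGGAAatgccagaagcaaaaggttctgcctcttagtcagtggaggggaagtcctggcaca
Ms4a4b: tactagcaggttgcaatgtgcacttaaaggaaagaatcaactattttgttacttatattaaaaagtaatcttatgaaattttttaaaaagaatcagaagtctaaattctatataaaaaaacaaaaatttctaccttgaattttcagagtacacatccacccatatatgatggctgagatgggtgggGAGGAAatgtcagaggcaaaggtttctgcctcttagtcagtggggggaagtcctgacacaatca

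Motifs were searched on both strands in windows of 300 bases, from 250 before to 50 after the start. The AP-1 letters TGACTCA occurred in 5.20% of 32851 promoters and in none of those of the members, and so did the cyclic AMP response element TGACGTCA (1.79% of promoters). With any middle base (TGANTCA, 7.81%, which includes the former), matches lay in *Ms4a4b* and at a second start of *Ms4a7*. The interferon-stimulated response element, here GAAA and GAAA with any 2 bases between them (3.44%), the composite element of PU.1 with an interferon regulatory factor, here GGAA and GAAA with any 2 bases between them (2.72%), and the STAT element TTCNNNGAA (8.30%) matched in no member. GAGGAA, in 28.3% of promoters, lay in *Ms4a4c*, *Ms4a4b* and *Ms4a7*. A match is a description of letters, and its absence says nothing of binding elsewhere.

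The partners and effectors of MS4A proteins were taken from a list of 21 genes, of which 17 were tested. Of these 12 had log2 fold changes above 0 and 5 below, with a median of 0.14, and 1 was called, where 1.86% of all tested genes were. That gene was *Cd81*, a tetraspanin, which is a membrane protein of a similar topology, with 59.4, 51.6 and 63.4 CPM in the controls against 9.0, 14.8 and 7.53 CPM in the deletion libraries. It fell in every Δ/Δ library (log2 fold change -2.48, SE 0.24, edgeR adjusted p = 0.00417) and remained called with each library left out in turn.

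*Fcer1g*, the signalling gamma chain of Fc receptors, rose below the fold limit from 67.5 ± 1.79 to 97.1 ± 3.46 CPM (SD, n = 3; log2 fold change 0.52, SE 0.06, edgeR adjusted p = 0.00556). *Clec7a*, which encodes dectin-1, had 5.97, 3.52 and 4.58 CPM in the controls against 1.82, 15.1 and 1.85 CPM in the deletion libraries, and Δ/Δ 2 alone was high (0.41, SE 0.80, edgeR adjusted p = 0.821). The kinase gene *Syk*, downstream of dectin-1, had 230 ± 22.6 and 256 ± 37.8 CPM (0.15, SE 0.12, edgeR adjusted p = 0.524), and the adaptor gene *Tyrobp* 355 ± 27.99 and 389 ± 27.8 CPM (0.13, SE 0.08, edgeR adjusted p = 0.414). *Trem2*, *Vsig4*, *Fcer1a* and *Arg1* had too few reads to test.

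Most interferon-stimulated genes had lower values in the deletion libraries. All 20 on the list were tested, 19 had log2 fold changes below 0, the median was -1.42, and 10 were called lower, where 0.869% of all tested genes were. Among them *Isg15*, a ubiquitin-like protein, fell from 19.1 ± 5.99 to 3.96 ± 1.63 CPM (SD, n = 3; log2 fold change -2.27, SE 0.35, edgeR adjusted p = 0.0187). *Irf7*, which encodes a factor that amplifies interferon expression, fell from 94.5 ± 17.8 to 32.4 ± 11.2 CPM (-1.54, SE 0.25, edgeR adjusted p = 0.0209). *Rtp4* (-2.97, SE 0.40, edgeR adjusted p = 0.0116) and *Igtp* (-1.17, SE 0.14, edgeR adjusted p = 0.00766) were also called. With either fl/fl 1 or fl/fl 2 left out, the number called was 0.

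**Figure D4:**
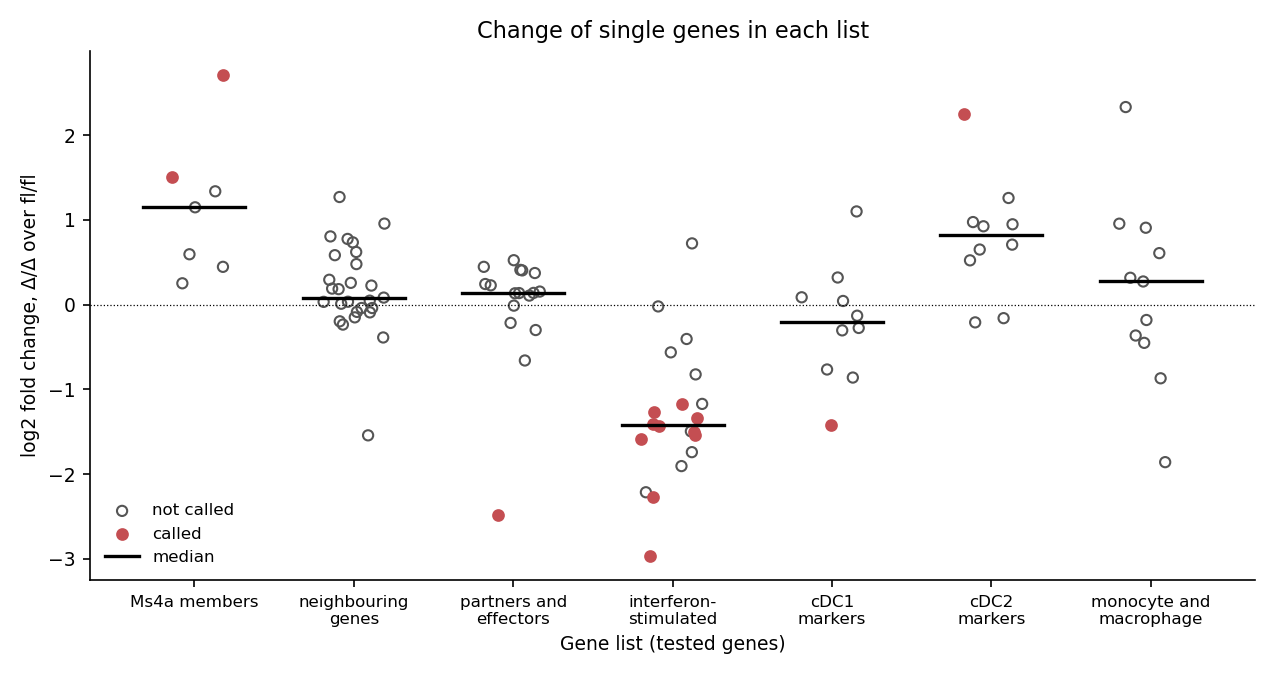
Log2 fold change (Δ/Δ over fl/fl) of each tested gene in 7 lists, with filled red points for called genes, open points for the others and a black line at the median of each list. The members lie wholly above 0 with a median of 1.15, and 19 of the 20 interferon-stimulated genes lie below 0 with a median of -1.42.

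Marker genes of other cells gave mixed values. Of the 10 cDC2 markers, 8 had log2 fold changes above 0 and 2 below. Of 10 cDC2 markers 5 had every Δ/Δ above every fl/fl library, against 13.7% of all tested genes, with summed CPM of 235 to 381 in the controls and 527 to 774 in the deletion libraries. The 6 libraries stood in the same order by this sum as by the summed CPM of the members. That order includes the genotype difference used to choose the members. The most abundant of these markers, *Cd209a*, was also the gene most like *Ms4a4c*, so nothing is read from the shared order. *Cd209a* was called (log2 fold change 2.25, SE 0.25, edgeR adjusted p = 0.00556), and *Klf4*, a transcription factor gene, passed the adjusted p alone (0.97, SE 0.18, edgeR adjusted p = 0.0321). *Sirpa*, the gene of CD172a against which the cells were sorted, had 50.1 ± 8.99 and 43.3 ± 3.10 CPM (-0.21, SE 0.13, edgeR adjusted p = 0.43).

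Of 15 monocyte and macrophage markers 11 were tested, and 6 had log2 fold changes above 0 and 5 below. An adjusted p of 0.05 was passed by 2, where 3.88% of all tested genes passed it. Both were higher in Δ/Δ libraries, namely *Ccr2* (log2 fold change 0.96, SE 0.13, edgeR adjusted p = 0.013) and *Adgre1* (0.91, SE 0.17, edgeR adjusted p = 0.0317). The summed CPM of the 15 markers was 2453 to 2876 in the controls and 3467 to 4318 in the deletion libraries, most of it *Lyz2* and *Ccr2*. The macrophage genes *Mertk*, *C1qa*, *C1qb* and *C1qc* had means under 1 CPM in both genotypes, and *Ly6c2* and *Csf1r* had 2.92 ± 1.08 and 5.04 ± 1.47 CPM in the controls against 2.14 ± 0.490 and 6.27 ± 0.592 CPM in the deletion libraries. The part of cDC2 or monocyte genes in the values of the members was not tested.

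Summed CPM over 8 pDC markers was 247 to 266 in the controls and 266 to 318 in the deletion libraries. Of these markers 6 had log2 fold changes above 0 and 2 below, and *Ccr9* was called higher. *Bst2*, the most abundant, went from 100 ± 10.2 to 75.6 ± 4.52 CPM (SD, n = 3; log2 fold change -0.41, SE 0.09, edgeR adjusted p = 0.0572). The sums were 332 to 359 and 275 to 412 over 7 B cell markers (most abundant *Ighm*). Over 8 mast cell and basophil markers (most abundant *Kit*) they were 289 to 368 and 351 to 466. *Kit* alone had 288 to 366 CPM in the controls and 349 to 462 CPM in the deletion libraries, nearly the whole sum. *Mcpt8*, *Cpa3* and *Prss34* had too few reads to test. In each of them every Δ/Δ library lay above every fl/fl library, which held for 13.7% of all tested genes. The other markers of this list overlapped. *Ms4a4b* and *Ms4a6b* are best known from T cells. Over 11 T and NK cell markers the sum was 5.20 to 8.60 and 10.3 to 14.9 CPM. The most abundant was *Cd4*, which was called higher and went from 1.04 ± 0.606 to 5.13 ± 1.45 CPM (SD, n = 3). The study treats CD4 as a cDC2 marker and reports more of this protein on cDC1s without c-Jun and JunB. *Cd3e*, *Cd3d*, *Trbc1* and *Trbc2* had means under 0.5 CPM in both genotypes. Over 10 neutrophil and granule markers (*S100a9*) the sum was 4.66 to 18.0 and 3.73 to 11.3 CPM. Immediate early genes, which respond to handling and activation, summed to 427 to 759 in the controls and 649 to 1844 CPM in the deletion libraries, with *Zfp36* the most abundant, and their part in the values of the members was not tested.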

How the data were processed

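The authors aligned paired reads to mm10 with STAR 2.6.1a (2-pass mode, Gencode vM19) and deposited raw counts of uniquely mapped reads per gene, without normalization or pooling, 1 column per library with the strand column not given. STAR's tallies of other reads were not used (3.26 to 4.20% unmapped, 5.33 to 5.76% multimapping). Of 54532 identifiers, 54495 were matched to GENCODE M21.

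Genes were filtered by filterByExpr (minimum count 10, minimum total 15), and genotypes were compared by the quasi-likelihood test of edgeR 4.0.16 under R 4.3.3 with TMM normalization. Benjamini-Hochberg adjustment ran over 12894 genes. Alternatives were DESeq2 1.42.0 (Wald test, and its size factors in edgeR), limma-voom (limma 3.58.1), no filter, a stricter filter, a term for the replicate number, each library left out, and other gene lengths. The steps were tested on simulated counts. Log2 CPM for correlations used a prior count of 2. No pair of libraries differed by as little as sampling noise (chi-square per degree of freedom at least 6.35).

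The members and all gene lists were chosen with earlier results of these data known. Named genes were all members, other Ms4a genes of at least 1 CPM, *Jun* and *Junb*, called genes or the smallest adjusted p of each list, the 5 genes most like the 2 members of largest change, and marker genes past an adjusted p of 0.05. Others were chosen after their values were seen, and 1 marker gene is not reported here. Sequences came from GENCODE M21 transcripts (coding) and RefSeq (promoters). Python 3.11.15 was used for summaries.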

Additional observations from a re-analysis of the deposited data

How the results depend on the processing

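The log2 fold changes of the 7 members kept their sign and moved by less than 1 SD between replicates under all 84 settings tried (12 for each). Leaving out 1 of 3 libraries can hardly shift a mean by 1 such SD. The settings with a library left out could thus hardly pass that limit, and nothing is read from their staying within it. With 1 library left out at a time they ranged from 0.97 to 1.35 for *Ms4a7*, 0.21 to 0.91 for *Ms4a4b*, 0.18 to 0.36 for *Ms4a6c*, 0.39 to 0.76 for *Ms4a6b* and 0.95 to 1.82 for *Ms4a6d*. The number of members called was 4 with DESeq2's Wald test and 0 to 3 with a library left out. The number of neighbouring genes called was 0 to 1 with a library left out and 1 with no limit on the fold change, and the latter setting gave 2 partners and effectors. Interferon-stimulated genes called numbered 0 to 12 with a library left out. The share of all tested genes called is not given for DESeq2 or with a library left out. Fewer libraries enter the fits with a library left out, and no other cause was tested.

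The deviations of same-numbered libraries from their genotype means had correlations of 0.091, -0.148 and 0.2, and other pairs -0.221 to 0.152. With 3 libraries a genotype, these values cannot decide whether same-numbered samples were handled together, which the labels do not state. With the replicate number as a block, 2 members, 0 neighbouring genes, 1 partner and 8 interferon-stimulated genes were called, and the median log2 fold change of the members was 1.13. *Ms4a4b*, *Ms4a7* and *Ms4a6d* rest on 38 to 257 reads a library, and *Ms4a4a* on 53, 90 and 152 reads in the controls. These low counts limit the precision of their values.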
